A study of Spodoptera frugiperda with 15 samples.

Results

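Genes of the extracellular matrix and its integrin receptors were followed across 4 insecticide treatments and a control in whole bodies of the fall armyworm, *Spodoptera frugiperda*. Members were all genes of the deposited table whose description, with case ignored, holds collagen (but not collagenase), laminin, integrin, nidogen, perlecan, papilin, hemicentin, matrix metalloproteinase, lysyl oxidase or SPARC. That gave 105 of 20784 genes, and 99 of them had enough counts to be tested. The animals were labelled as wild type, and the groups were emamectin benzoate, tetrazolidamide, cyantraniliprole, spinetoram and a control, with 3 libraries each. Emamectin benzoate is an avermectin and targets chloride channels gated by glutamate. Cyantraniliprole, a diamide, targets ryanodine receptors, and spinetoram, a spinosyn, nicotinic acetylcholine receptors. Neither dose nor length of exposure nor stage is in the labels, and they leave unsaid if replicate libraries are from different animals. P-values therefore measure the spread between these libraries, which may be technical.

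The matrix of insects is mostly basement membrane, a sheet of laminin and collagen IV networks linked by nidogen and perlecan that lies under epithelia and around muscle, fat body and gut. In *Drosophila*, fat body and blood cells secrete much of the collagen IV, and SPARC, a collagen-binding glycoprotein, is needed for its proper deposition. Integrins are receptors of 1 alpha and 1 beta chain that bind this matrix outside the cell and, through talin and its partners, the actin cytoskeleton inside. Lysyl oxidases cross-link matrix proteins, and matrix metalloproteinases and ADAMTS proteases cut them.

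Expression was taken as the deposited FPKM, a level scaled to gene length and library size, and tests were run on the deposited estimated counts, which totalled 50600821 to 77183281 units per library. A gene was called changed when edgeR's quasi-likelihood test gave a Benjamini-Hochberg adjusted p under 0.05 over all 15505 tested genes. Listed markers of muscle, epidermis, fat body, midgut and blood cells each summed to a level above 0 in all 15 libraries. In whole bodies, fewer cells of a type and less RNA per cell cannot be told apart. Many descriptions are shared by several members. How alike their sequences are was not examined, and where they are near-identical the counting could have split reads, so values of single copies are uncertain. Errors given with means are SD (n = 3). Gene names here are the descriptions deposited with the table and rest on similarity to other species.

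The 3 most abundant members, each with a mean of 100 FPKM or more, were SPARC and 2 collagen IV genes, and 21 members had a mean of 10 FPKM or more and 71 a mean of 1 FPKM or more. SPARC LOC118269687 had 318, 356 and 256 FPKM in the emamectin benzoate libraries and 565, 557 and 433 in tetrazolidamide. Cyantraniliprole libraries had 465, 855 and 380.21 FPKM, spinetoram 289, 239.99 and 614 and control 466, 413 and 698. Tetrazolidamide, cyantraniliprole and spinetoram overlapped control, the 3 emamectin benzoate libraries all lay under the control libraries, and no test passed 0.05. Such separation was common. In counts scaled to library size, 25.3% of all tested genes had no overlap, in either direction, between emamectin benzoate and control. The share was 36.6% with tetrazolidamide, 23.4% with cyantraniliprole and 21.6% with spinetoram. Among the roles were 29 hemicentins, 14 integrin subunits, 13 collagens other than types IV and XVIII, 9 ADAMTS proteases, 7 papilins, 6 ADAM proteases and 5 laminin subunits. Another 6 members were not tested, with means of up to 0.0248 FPKM, and 1 of them had no count in any library. By name alone 11 members entered that are not matrix or integrin genes in the narrow sense. No member was described as perlecan.

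**Figure D1:**
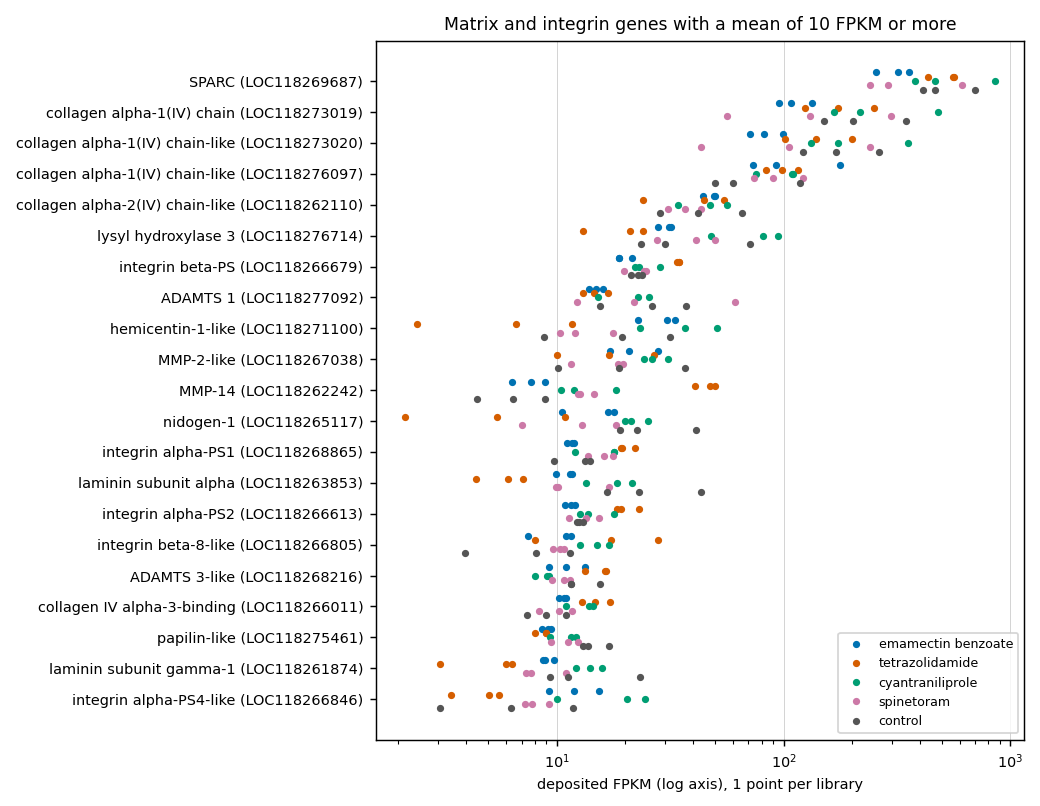
Deposited FPKM of the 21 members with a mean of 10 FPKM or more, on a log axis, with 1 point per library and 1 colour per group. SPARC and the collagen IV chains lead, and the tetrazolidamide points of MMP-14 stand to the right of the rest of their row while those of nidogen, hemicentin-1-like and laminin lie mostly to the left.

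Tetrazolidamide gave the most calls among the members: 12 of 99 rose and 19 fell against control, 31.3% of the members. Of all tested genes, 22.3% were called, 10.9% higher and 11.4% lower. The median log2 fold change was -0.52 over the 99 tested members, and -0.07 over all tested genes. Emamectin benzoate called 13 members, with 3 higher and 10 lower, beside 4.09% of all tested genes, 2.31% higher and 1.78% lower. Its median log2 fold change was -0.19 over the members and 0.02 over all genes. Cyantraniliprole called 5 members, 4 higher and 1 lower, beside a background of 2.62%, 1.99% higher and 0.626% lower. Spinetoram called 3 members, 2 higher and 1 lower, beside 4.01% of all genes, 2.89% higher and 1.12% lower. The median log2 fold change over the members was -0.15 with cyantraniliprole and -0.22 with spinetoram, against -0.03 and -0.02 over all genes. Against the mean of the other 3 treatments, tetrazolidamide called 37 members, 13 higher and 24 lower, beside 19.1% of all tested genes, 9.62% higher and 9.44% lower. The 4 comparisons with control share the 3 control libraries, so their calls are not independent of each other.

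Across the 5 groups, 41 of 99 members differed in an F test of all group coefficients, beside 22.2% of all tested genes. The highest mean of these 41 lay in emamectin benzoate for 4, tetrazolidamide for 13, cyantraniliprole for 10, spinetoram for 0 and control for 14. The lowest mean lay in emamectin benzoate for 12, tetrazolidamide for 22, cyantraniliprole for 1, spinetoram for 1 and control for 5. Of the 99 tested members, 63 were called against control with no treatment, beside 75.1% of all tested genes. Another 25 were called with 1 treatment (19.3% of all tested genes), 8 with 2 (3.75%), 1 with 3 (1.12%) and 2 with all 4 (0.697%). Fitted with only tetrazolidamide and control, 20 of 95 members were called, beside 12.2% of all genes tested in that fit, and 39 had an unadjusted p under 0.05, beside 30.2%. Such fits called 0 members with emamectin benzoate (0% of all genes tested), 0 with cyantraniliprole (0%) and 0 with spinetoram (0.0141%). At an unadjusted p under 0.05 they held 27 of 97 members with emamectin benzoate, beside 17.4% of all genes tested, 21 of 97 with cyantraniliprole, beside 16%, and 11 of 98 with spinetoram, beside 14.9%.

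**Figure D2:**
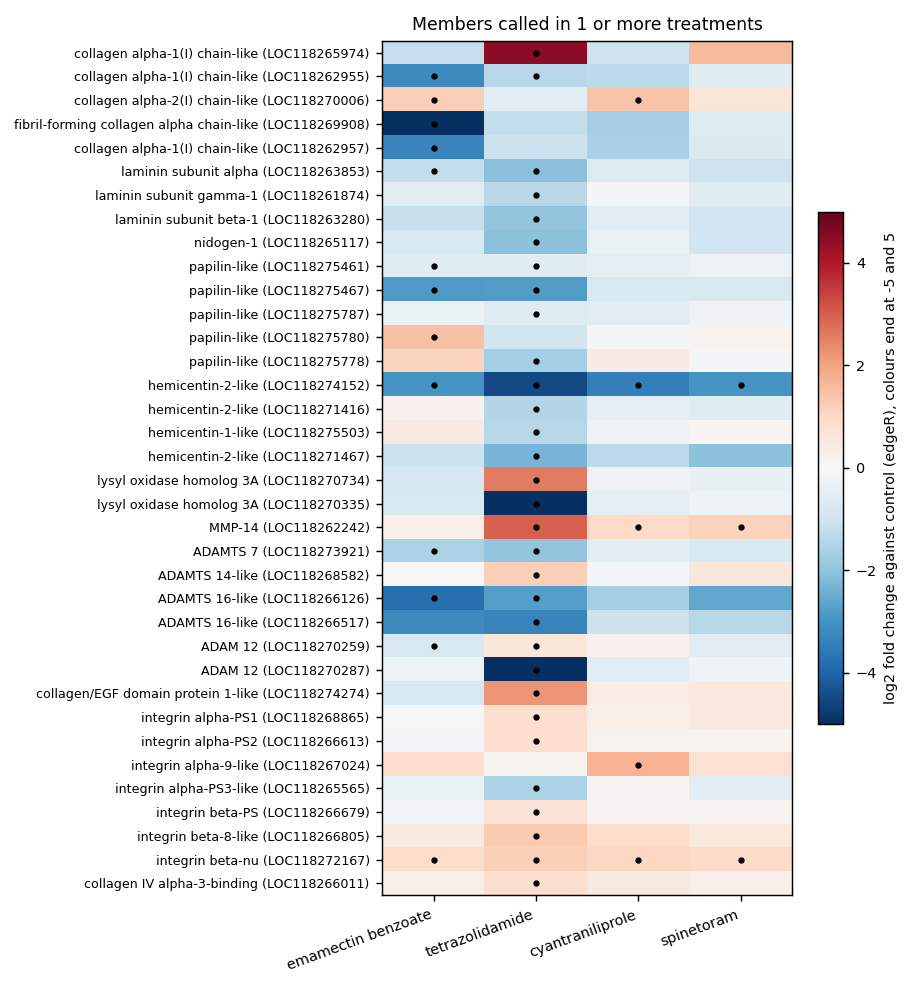
Log2 fold changes against control, from edgeR, of the 36 members called with 1 or more treatments, with treatments across and members down the page in the order of their roles. Black dots mark an adjusted p under 0.05, and colours end at -5 and 5, which cuts off the genes with no count in tetrazolidamide. Integrin beta-nu and one hemicentin carry a dot in all 4 columns.

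Collagen IV, the network-forming collagen of basement membranes, was not called in any comparison (0 of 4 genes). LOC118273019 had 107, 134 and 95.7 FPKM in the emamectin benzoate libraries and 250.08, 173 and 125 in tetrazolidamide. It had 216, 478 and 167 FPKM in cyantraniliprole, 131, 56.1 and 297 in spinetoram and 202, 151 and 345 in control. LOC118273020 had 82.4, 99.9 and 71.4 FPKM in the emamectin benzoate libraries and 200.03, 139 and 101 in tetrazolidamide. The values were 175, 353 and 133 FPKM in cyantraniliprole, 106, 43.2 and 241 in spinetoram and 171, 122 and 265 in control. These 2 genes lie head to head on opposite strands and overlap at their starts, as the collagen IV pair of *Drosophila* also lies head to head, and LOC118273019 had the higher level in each of the 15 libraries. The third alpha-1(IV)-like gene, LOC118276097, averaged 114 ± 55.2 FPKM in emamectin benzoate, 99.4 ± 15.9 in tetrazolidamide, 98.4 ± 19.4 in cyantraniliprole, 95.3 ± 24.8 in spinetoram and 76.2 ± 37.1 in control, and the alpha-2(IV)-like gene LOC118262110 averaged 47.8 ± 3.31 FPKM in emamectin benzoate, 41.1 ± 15.6 in tetrazolidamide, 46 ± 11.1 in cyantraniliprole, 37 ± 6.02 in spinetoram and 45.5 ± 18.8 in control. Each treatment overlapped control for LOC118276097 and LOC118262110. For LOC118273019 and LOC118273020 the emamectin benzoate libraries all lay below the control libraries, and the other treatments overlapped control. Adjusted p of the 4 genes ran from 0.28 to 0.84 with emamectin benzoate and from 0.28 to 0.98 with tetrazolidamide. Collagen XVIII, a basement membrane collagen that carries sugar chains, was not called in any comparison either (0 of 3). Of all tested genes, 25.3% had no overlap with control with emamectin benzoate, 36.6% with tetrazolidamide and 21.6% with spinetoram. For the collagen XVIII genes LOC118272604 and LOC118272348, the emamectin benzoate, tetrazolidamide and spinetoram libraries all lay below the control libraries, and cyantraniliprole overlapped control. Its more abundant genes averaged 5.79 ± 0.503 FPKM in emamectin benzoate, 4.85 ± 0.353 in tetrazolidamide, 6.46 ± 2.15 in cyantraniliprole, 5.12 ± 0.667 in spinetoram and 7.89 ± 0.24 in control for LOC118272604, and 1.17 ± 0.391 FPKM in emamectin benzoate, 1 ± 0.123 in tetrazolidamide, 1.37 ± 0.665 in cyantraniliprole, 1.33 ± 0.165 in spinetoram and 2.18 ± 0.582 in control for LOC118272348.

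Laminin, the heterotrimer that starts basement membrane assembly, was lower after tetrazolidamide in its alpha, beta-1 and gamma-1 subunits, 3 of 5 laminin genes, and nidogen fell with them. Among all tested genes, 11.4% were called lower with tetrazolidamide. The alpha subunit gene LOC118263853 had 9.92, 11.5 and 11.7 FPKM in the emamectin benzoate libraries and 7.11, 6.08 and 4.39 in tetrazolidamide. There were 13.4, 21.5 and 18.5 FPKM in cyantraniliprole, 9.9, 10.1 and 17.1 in spinetoram and 16.7, 23.1 and 43.4 in control. All 3 tetrazolidamide libraries lay below every other library (log2 fold change -2.09 ± 0.31 SE, adjusted p = 0.00087 against control). The beta-1 gene LOC118263280 had 5.67, 6.51 and 4.97 FPKM in the emamectin benzoate libraries and 3.8, 3.58 and 1.99 in tetrazolidamide. Levels were 7.25, 12.6 and 8.39 FPKM in cyantraniliprole, 5.23, 4.84 and 8.77 in spinetoram and 8.75, 9.44 and 22.2 in control. The tetrazolidamide libraries were again the 3 lowest of 15 (log2 fold change -1.96 ± 0.34 SE, adjusted p = 0.0022). The gamma-1 gene LOC118261874 had 8.73, 9.77 and 8.9 FPKM in the emamectin benzoate libraries and 6.32, 5.97 and 3.06 in tetrazolidamide. Cyantraniliprole libraries had 12.2, 15.8 and 14.1 FPKM, spinetoram 7.29, 7.72 and 11 and control 9.32, 11.2 and 23.2. Here too the tetrazolidamide libraries were below the other 12 (log2 fold change -1.37 ± 0.29 SE, adjusted p = 0.0061). Nidogen, which ties laminin to collagen IV, had 10.6, 16.9 and 17.9 FPKM in emamectin benzoate, 10.9, 5.43 and 2.15 in tetrazolidamide, 21.2, 20.04 and 25.3 in cyantraniliprole, 7.02, 12.9 and 18.2 in spinetoram and 19, 22.7 and 41.2 in control (LOC118265117; log2 fold change -2.05 ± 0.50 SE, adjusted p = 0.012 with tetrazolidamide). Its tetrazolidamide libraries lay below the control libraries and overlapped those of emamectin benzoate and spinetoram.

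Control 3 was the highest of the 15 libraries for each of these 4 genes, and their calls with tetrazolidamide held with it or any other single library left out. Fitted with only these 2 groups, the gamma-1 call had an adjusted p of 0.065 and the nidogen call 0.067. The laminin alpha gene was the one laminin called with emamectin benzoate (log2 fold change -1.23 ± 0.30 SE, adjusted p = 0.042). Against the mean of the other 3 treatments, tetrazolidamide was lower for the same genes: the alpha gene (log2 fold change -1.11 ± 0.26 SE, adjusted p = 0.011), the beta-1 gene (log2 fold change -1.08 ± 0.29 SE, adjusted p = 0.022), the gamma-1 gene (log2 fold change -0.95 ± 0.25 SE, adjusted p = 0.020) and nidogen (log2 fold change -1.36 ± 0.42 SE, adjusted p = 0.043). A second laminin alpha gene, LOC118263862, which overlaps the first on the opposite strand, averaged 1.8 ± 0.592 FPKM in emamectin benzoate, 2.11 ± 0.119 in tetrazolidamide, 2.16 ± 0.438 in cyantraniliprole, 1.75 ± 0.608 in spinetoram and 2.81 ± 0.379 in control, with no call. Its tetrazolidamide and spinetoram libraries all lay below the control libraries, and emamectin benzoate and cyantraniliprole overlapped control. Levels fully apart from control were found for 36.6% of all tested genes with tetrazolidamide and 21.6% with spinetoram. Whether counting used strand is not given in the sources used here, so reads in the overlap cannot be assigned. Perlecan, the proteoglycan of the same sheet, is held in the table as a basement membrane-specific heparan sulfate proteoglycan (68.9 ± 4.83 FPKM in emamectin benzoate, 75.2 ± 18.8 in tetrazolidamide, 88.4 ± 17.8 in cyantraniliprole, 59.7 ± 28.9 in spinetoram and 89.2 ± 21.1 in control), a gene outside the member rule that was not called (log2 fold change -0.11 with tetrazolidamide, adjusted p = 0.82). For LOC118263853 (adjusted p up to 0.14), the call with emamectin benzoate did not pass 0.05 with any 1 emamectin benzoate library, any 1 tetrazolidamide library, any 1 cyantraniliprole library, spinetoram 1 or control 2 or 3 left out. With tetrazolidamide 3 left out, the calls against the other treatments did not pass 0.05 for LOC118263853 (adjusted p up to 0.061) and LOC118261874 (adjusted p up to 0.10). For LOC118263280 (adjusted p up to 0.11), the call against the other treatments did not pass 0.05 with tetrazolidamide 2 or 3 left out. With emamectin benzoate 2 or 3, tetrazolidamide 2 or 3, any 1 cyantraniliprole library, spinetoram 2 or 3 or control 2 left out, the call against the other treatments did not pass 0.05 for LOC118265117 (adjusted p up to 0.15).

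Several blood cell markers were also lower with tetrazolidamide. Of 7 listed markers, 4 fell with tetrazolidamide, namely 3 prophenoloxidase genes and 1 of 2 hemocytin genes, and 0 rose. That is 57.1% called, beside 22.3% of all tested genes. With emamectin benzoate 0 of the 7 were called. There the median log2 fold change was 0.36 over the markers and -1.14 over the 5 laminin genes. The summed level of the markers was 102, 117 and 83.8 FPKM in the emamectin benzoate libraries, 30.1, 25 and 18.8 in tetrazolidamide, 59, 57.8 and 48.9 in cyantraniliprole, 64.3, 42.9 and 68.5 in spinetoram and 38.9, 78.2 and 121 in control. The tetrazolidamide libraries were the 3 lowest and control 3 the highest of 15, as for the laminins. No marker of the list was at 0 in a group mean, and the 2 croquemort genes, receptors of phagocytic cells, averaged 5.21 FPKM in tetrazolidamide against 4.97 in control and 2.33 in tetrazolidamide against 2.51 in control, with no call. Their part in the laminin and nidogen result was not tested.

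Papilins, secreted matrix proteins with thrombospondin and protease-inhibitor repeats, fell in 4 of 7 genes with tetrazolidamide and in 2 of 7 with emamectin benzoate, where 1 rose. Among all tested genes, 11.4% were called lower with tetrazolidamide, and 1.78% lower and 2.31% higher with emamectin benzoate. LOC118275467 had 1.26, 1.31 and 0.576 FPKM in the emamectin benzoate libraries and 1.25, 0.891 and 0.882 in tetrazolidamide. It had 3.29, 4.17 and 7.13 FPKM in cyantraniliprole, 3.59, 2.23 and 6.57 in spinetoram and 8.4, 2.78 and 12.7 in control. The emamectin benzoate and tetrazolidamide libraries lay below all control libraries (log2 fold change -2.84 ± 0.53 SE, adjusted p = 0.019 with emamectin benzoate; log2 fold change -2.81 ± 0.53 SE, adjusted p = 0.0034 with tetrazolidamide). LOC118275461 had 9.43, 9.14 and 8.66 FPKM in the emamectin benzoate libraries and 9.01, 8.95 and 7.99 in tetrazolidamide. The values were 9.36, 12.2 and 11.5 FPKM in cyantraniliprole, 12.4, 9.43 and 11.2 in spinetoram and 13, 13.7 and 17 in control. This narrower difference was again without overlap (log2 fold change -0.61 ± 0.11 SE, adjusted p = 0.019 with emamectin benzoate; log2 fold change -0.61 ± 0.11 SE, adjusted p = 0.0032 with tetrazolidamide). LOC118275787 averaged 1.91 ± 0.114 FPKM in emamectin benzoate, 1.47 ± 0.105 in tetrazolidamide, 1.79 ± 0.199 in cyantraniliprole, 2.03 ± 0.453 in spinetoram and 2.5 ± 0.371 in control, and it fell with tetrazolidamide (log2 fold change -0.63 ± 0.13 SE, adjusted p = 0.0063). For LOC118275467 (adjusted p up to 0.093) and LOC118275461 (adjusted p up to 0.081), the calls with emamectin benzoate did not pass 0.05 with emamectin benzoate 1 or 3 left out.

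A run of 3 neighbouring papilin-like genes on 1 strand had their highest means in emamectin benzoate and their lowest in tetrazolidamide. LOC118275780 had 3, 2.64 and 2.66 FPKM in the emamectin benzoate libraries and 0.364, 0.649 and 0.472 in tetrazolidamide. There were 0.944, 1.17 and 1.01 FPKM in cyantraniliprole, 1.41, 0.964 and 0.854 in spinetoram and 0.689, 0.666 and 1.82 in control. The emamectin benzoate libraries were the 3 highest and the tetrazolidamide libraries the 3 lowest of 15 (log2 fold change 1.48 ± 0.36 SE, adjusted p = 0.042 for emamectin benzoate against control; log2 fold change -1.45 ± 0.32 SE, adjusted p = 0.0085 for tetrazolidamide against the other treatments). LOC118275778 had 1.66, 1.3 and 1.36 FPKM in the emamectin benzoate libraries and 0.209, 0.189 and 0.156 in tetrazolidamide. Levels were 1.33, 0.343 and 1.14 FPKM in cyantraniliprole, 0.98, 0.475 and 0.386 in spinetoram and 0.398, 0.872 and 0.773 in control. Its tetrazolidamide libraries lay under all others (log2 fold change -1.70 ± 0.52 SE, adjusted p = 0.036 against control; log2 fold change -2.20 ± 0.48 SE, adjusted p = 0.0081 against the other treatments). Their neighbour LOC118275777 averaged 0.884 ± 0.046 FPKM in emamectin benzoate, 0.0842 ± 0.00962 in tetrazolidamide, 0.383 ± 0.372 in cyantraniliprole, 0.373 ± 0.245 in spinetoram and 0.372 ± 0.212 in control and was not called. The 7th papilin, LOC118265907, averaged 8.39 ± 1.43 FPKM in emamectin benzoate, 7.21 ± 1.55 in tetrazolidamide, 7.52 ± 3.18 in cyantraniliprole, 6.03 ± 3 in spinetoram and 9.49 ± 4.75 in control with no call. With any 1 emamectin benzoate library, any 1 tetrazolidamide library, any 1 cyantraniliprole library, spinetoram 1 or 2 or control 1 or 2 left out, the call with emamectin benzoate did not pass 0.05 for LOC118275780 (adjusted p up to 0.14). For LOC118275778 (adjusted p up to 0.11), the call with tetrazolidamide did not pass 0.05 with any 1 tetrazolidamide library or control 2 or 3 left out.

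SPARC-related modular calcium-binding protein, a secreted relative of SPARC (LOC118268072), averaged 6.14 ± 0.126 FPKM in emamectin benzoate, 4.65 ± 1.4 in tetrazolidamide, 5.9 ± 1.64 in cyantraniliprole, 4.56 ± 0.11 in spinetoram and 6.33 ± 1.23 in control and was not called.

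Among collagen chains other than types IV and XVIII, 3 of 9 tested fell and 1 rose with emamectin benzoate, and 1 rose and 1 fell with tetrazolidamide. With emamectin benzoate 44.4% were called, beside 4.09% of all tested genes. The tetrazolidamide share, 22.2%, was about that of all tested genes, 22.3%. The alpha-1(I)-like gene LOC118265974 had 1.35, 0.246 and 0.645 FPKM in the emamectin benzoate libraries and 46.9, 33.2 and 28.7 in tetrazolidamide. Cyantraniliprole libraries had 1.16, 0.973 and 0.497 FPKM, spinetoram 11.1, 0.952 and 3.04 and control 3.4, 0.652 and 1.15. All 3 tetrazolidamide libraries stood above the other 12 (log2 fold change 4.48 ± 0.94 SE, adjusted p = 0.0058 against control; log2 fold change 4.70 ± 0.61 SE, adjusted p = 0.00047 against the other treatments). A gene of the same description, LOC118266475 had 0.251, 0.126 and 0.387 FPKM in the emamectin benzoate libraries and 4.23, 0 and 16.3 in tetrazolidamide. It had 0.332, 0.137 and 0.263 FPKM in cyantraniliprole, 0.181, 0.189 and 0.0449 in spinetoram and 0.488, 0.0842 and 0.365 in control. Only tetrazolidamide 1 and 3 were high there and tetrazolidamide 2 had no count, so the call against the other treatments rests on part of the group (log2 fold change 5.24 ± 1.04 SE, adjusted p = 0.0049). With tetrazolidamide 3 left out, the call against the other treatments did not pass 0.05 for LOC118266475 (adjusted p up to 0.073).

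With emamectin benzoate 3 collagens fell. The fibril-forming collagen alpha chain-like gene LOC118269908 had 0.269, 0.609 and 0.118 FPKM in the emamectin benzoate libraries and 3.84, 5.54 and 4.59 in tetrazolidamide. The values were 4.1, 3.8 and 3.9 FPKM in cyantraniliprole, 5.34, 3.68 and 11.8 in spinetoram and 19.6, 4.17 and 12.3 in control. The emamectin benzoate libraries were the lowest 3 of 15 (log2 fold change -5.12 ± 0.70 SE, adjusted p = 0.0069). The alpha-1(I)-like gene LOC118262955 had 1.75, 1.85 and 1.1 FPKM in the emamectin benzoate libraries and 4.64, 5.9 and 4.85 in tetrazolidamide. There were 5.48, 7.97 and 5.28 FPKM in cyantraniliprole, 8.01, 3.62 and 15.8 in spinetoram and 17, 10.01 and 17.6 in control. Emamectin benzoate was lowest (log2 fold change -3.18 ± 0.43 SE, adjusted p = 0.0069), and tetrazolidamide also lay below control (log2 fold change -1.39 ± 0.41 SE, adjusted p = 0.028). LOC118262957, of the same description and on the same sequence, averaged 0.478 ± 0.442 FPKM in emamectin benzoate, 2.13 ± 0.295 in tetrazolidamide, 1.65 ± 0.366 in cyantraniliprole, 2.74 ± 0.952 in spinetoram and 4.83 ± 4.37 in control (log2 fold change -3.29 ± 0.77 SE, adjusted p = 0.040 with emamectin benzoate), where the groups overlapped. For LOC118262957 (adjusted p up to 0.15), the call with emamectin benzoate did not pass 0.05 with emamectin benzoate 1 or 3, any 1 tetrazolidamide library, cyantraniliprole 1 or 3, spinetoram 1 or control 1 left out. With any 1 tetrazolidamide library or control 1 or 3 left out, the call with tetrazolidamide did not pass 0.05 for LOC118262955 (adjusted p up to 0.091).

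The alpha-2(I)-like collagen rose with 2 treatments. LOC118270006 had 11.7, 11 and 7.31 FPKM in the emamectin benzoate libraries and 2.63, 3.1 and 2.53 in tetrazolidamide. Levels were 8.22, 13.2 and 16.2 FPKM in cyantraniliprole, 7.84, 5.64 and 5.12 in spinetoram and 2.93, 4.31 and 6.16 in control. Emamectin benzoate and cyantraniliprole lay above every control library (log2 fold change 1.24 ± 0.27 SE, adjusted p = 0.030 with emamectin benzoate; log2 fold change 1.44 ± 0.27 SE, adjusted p = 0.022 with cyantraniliprole). Of the other 12 libraries only control 1 fell within the tetrazolidamide range, and tetrazolidamide stood below the other treatments (log2 fold change -1.63 ± 0.24 SE, adjusted p = 0.00091). Of the remaining tested chains, LOC118280735 averaged 6.22 ± 0.562 FPKM in emamectin benzoate, 5.98 ± 1.1 in tetrazolidamide, 6.74 ± 0.414 in cyantraniliprole, 6.15 ± 0.766 in spinetoram and 7.48 ± 0.863 in control, LOC118277584 (alpha-1(IX)-like) had group means of 1.11 to 2.4 FPKM and LOC118270120 of 1.04 to 1.36 FPKM, and none was called. For LOC118270006 (adjusted p up to 0.097), the call with emamectin benzoate did not pass 0.05 with any 1 emamectin benzoate library or control 1 or 2 left out. With cyantraniliprole 3 or control 1 or 2 left out, the call with cyantraniliprole did not pass 0.05 for LOC118270006 (adjusted p up to 0.082).

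Hemicentins, matrix proteins built of immunoglobulin repeats that were first studied in nematodes, were the most numerous role. With tetrazolidamide 4 of 28 tested fell and 0 rose, a share of 14.3% called beside 11.4% of all tested genes called lower and 22.3% called in all. LOC118274152 had 0.542, 1.67 and 1.59 FPKM in the emamectin benzoate libraries and 0.456, 0.547 and 0.241 in tetrazolidamide. Cyantraniliprole libraries had 0.799, 1.43 and 0.81 FPKM, spinetoram 0.698, 2.31 and 0.669 and control 3.48, 12.6 and 15.8. Every treated library lay below every control library, and the gene was called lower with all 4 treatments. The falls were largest with tetrazolidamide (log2 fold change -4.52 ± 0.72 SE, adjusted p = 0.0014), followed by cyantraniliprole (log2 fold change -3.41 ± 0.68 SE, adjusted p = 0.026), emamectin benzoate (log2 fold change -2.96 ± 0.67 SE, adjusted p = 0.034) and spinetoram (log2 fold change -2.93 ± 0.67 SE, adjusted p = 0.034), and the differences among the treatments were not called for tetrazolidamide against the other 3 (adjusted p = 0.10). The control libraries themselves spread from 3.48 to 15.8 FPKM. The other hemicentin of this description on the same sequence, LOC118274066, averaged 3.4 ± 0.813 FPKM in emamectin benzoate, 7.97 ± 3.94 in tetrazolidamide, 9.99 ± 3.12 in cyantraniliprole, 6 ± 0.942 in spinetoram and 8.21 ± 5.98 in control and was not called. Summed counts of these 2 genes, in a fit added after seeing the data, were called with no treatment. The adjusted p of the sum was 0.075 with emamectin benzoate, 0.42 with tetrazolidamide, 0.72 with cyantraniliprole and 0.30 with spinetoram. LOC118275503 had 0.442, 0.427 and 0.321 FPKM in the tetrazolidamide libraries. Libraries of the other treatments ran over 0.746 to 1.81 (median 1.23) FPKM (n = 9), and control had 0.952, 1.03 and 1.61. Tetrazolidamide lay below all 12 other libraries (log2 fold change -1.44 ± 0.24 SE, adjusted p = 0.0017 against control; log2 fold change -1.54 ± 0.21 SE, adjusted p = 0.00058 against the other treatments). Against the other treatments alone, the order was opposite for LOC118276751. It had 7.3, 6.53 and 10.5 FPKM in tetrazolidamide and 3.55 to 5.07 (median 4) in the 9 libraries of the other treatments (log2 fold change 1.10 ± 0.23 SE, adjusted p = 0.0060). Its control libraries, at 6.27, 7.34 and 3.48 FPKM, overlapped tetrazolidamide. For LOC118274152 (adjusted p up to 0.11), the call with emamectin benzoate did not pass 0.05 with any 1 emamectin benzoate library, tetrazolidamide 1 or control 2 or 3 left out. With any 1 cyantraniliprole library or control 2 left out, the call with cyantraniliprole did not pass 0.05 for LOC118274152 (adjusted p up to 0.096). For LOC118274152 (adjusted p up to 0.11), the call with spinetoram did not pass 0.05 with tetrazolidamide 1, spinetoram 1 or 3 or control 2 left out. With tetrazolidamide 3 left out, the call against the other treatments did not pass 0.05 for LOC118276751 (adjusted p up to 0.058).

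A stretch of 233.57 kb with 13 genes holds 12 hemicentins, and their summed level was lowest in tetrazolidamide. That sum was 67.5, 59.7 and 58.6 FPKM in the emamectin benzoate libraries, 20.3, 28.2 and 12 in tetrazolidamide, 50.7, 93.7 and 82 in cyantraniliprole, 35.3, 58.5 and 30.9 in spinetoram and 31.7, 37.7 and 66.2 in control. Tetrazolidamide libraries were the 3 lowest of 15, and each other treatment overlapped control. Against the other treatments 5 of these 12 genes fell and 0 rose, with a median log2 fold change of -1.19 over the 12. That is 41.7% called, beside 19.1% of all tested genes called and 9.44% called lower. Against control 2 fell and 0 rose, or 16.7% called, beside 22.3% of all tested genes called and 11.4% called lower. The most abundant, LOC118271100 had 33.1, 30.6 and 22.9 FPKM in the emamectin benzoate libraries and 6.59, 11.6 and 2.43 in tetrazolidamide. It had 23.4, 36.6 and 51.1 FPKM in cyantraniliprole, 17.8, 12.1 and 10.3 in spinetoram and 8.75, 19.4 and 31.6 in control (log2 fold change -1.77 ± 0.44 SE, adjusted p = 0.016 against the other treatments). Tetrazolidamide 2 exceeded spinetoram 3 and control 1, and the other tetrazolidamide libraries were the lowest. LOC118271415 had 4.09, 4.84 and 3.36 FPKM in the tetrazolidamide libraries. The 9 libraries of the other treatments ran over 5.98 to 25.1 (median 10.7) FPKM, and control had 7.46, 3.98 and 8.71 (log2 fold change -1.41 ± 0.41 SE, adjusted p = 0.033 against the other treatments). LOC118271416 had 0.534, 0.737 and 0.323 FPKM in the tetrazolidamide libraries. Libraries of the other treatments ran over 0.788 to 1.99 (median 1.26) FPKM (n = 9), and control had 1.38, 1.01 and 2.41. It was called in both comparisons (log2 fold change -1.45 ± 0.36 SE, adjusted p = 0.014 against control; log2 fold change -1.18 ± 0.31 SE, adjusted p = 0.021 against the other treatments). LOC118271467 averaged 0.32 ± 0.0775 FPKM in emamectin benzoate, 0.129 ± 0.085 in tetrazolidamide, 0.285 ± 0.14 in cyantraniliprole, 0.153 ± 0.0268 in spinetoram and 0.72 ± 0.484 in control (log2 fold change -2.31 ± 0.56 SE, adjusted p = 0.012 against control). LOC118271245 (log2 fold change -1.67 ± 0.47 SE, adjusted p = 0.026) and LOC118271466 (log2 fold change -1.46 ± 0.44 SE, adjusted p = 0.038) were called against the other treatments alone. Most neighbours in the stretch share a description and 2 of them overlap on 1 strand, so single values are uncertain, while reads split among the 12 stay within their sum. For LOC118271416 (adjusted p up to 0.056), the call with tetrazolidamide did not pass 0.05 with tetrazolidamide 3 left out. With tetrazolidamide 1 or 3 left out, the calls against the other treatments did not pass 0.05 for LOC118271100 (adjusted p up to 0.064), LOC118271416 (adjusted p up to 0.10) and LOC118271245 (adjusted p up to 0.11). For LOC118271415 (adjusted p up to 0.12), the call against the other treatments did not pass 0.05 with emamectin benzoate 1 or 3 or any 1 tetrazolidamide library left out. With emamectin benzoate 1 or 2, tetrazolidamide 1 or 3, cyantraniliprole 2 or 3 or spinetoram 1 left out, the call against the other treatments did not pass 0.05 for LOC118271466 (adjusted p up to 0.15).

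**Figure D3:**
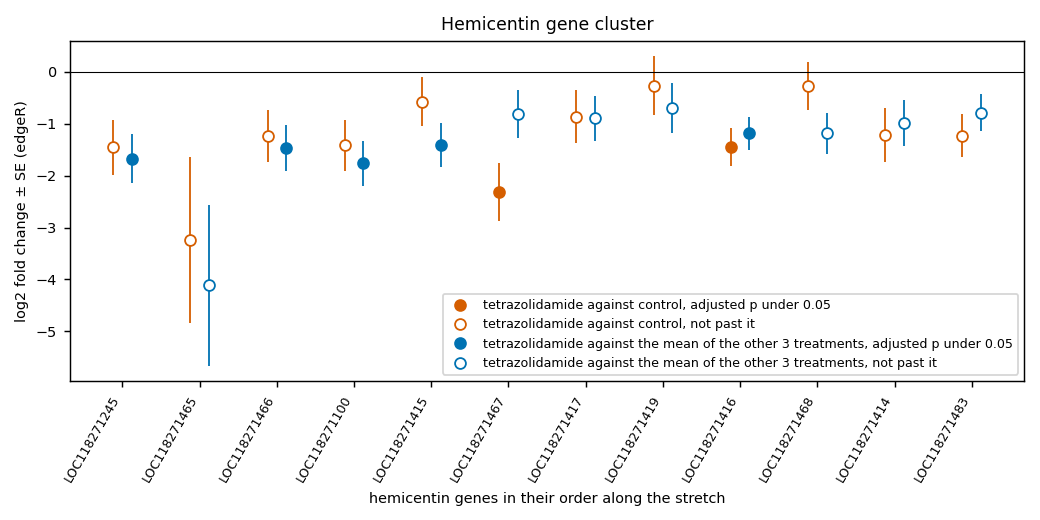
Log2 fold changes ± SE, from edgeR, of the 12 neighbouring hemicentin genes in their order along the stretch, for tetrazolidamide against control (orange) and against the mean of the other 3 treatments (blue). Filled points passed an adjusted p under 0.05, and all 24 values lie below 0.

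Lysyl oxidase, the cross-linking enzyme, is held as 2 genes described as homolog 3A, and they went opposite ways with tetrazolidamide. LOC118270734 had 0.656, 1.1 and 0.911 FPKM in the emamectin benzoate libraries and 8.06, 7.33 and 11.4 in tetrazolidamide. The values were 1.68, 1.4 and 1.47 FPKM in cyantraniliprole, 1.27, 1.15 and 1.15 in spinetoram and 2.24, 1.48 and 1.2 in control. Tetrazolidamide stood above every other library (log2 fold change 2.59 ± 0.32 SE, adjusted p = 0.00039 against control; log2 fold change 3.05 ± 0.22 SE, adjusted p = 1e-05 against the other treatments). LOC118270335 had 1.05, 0.632 and 0.306 FPKM in the emamectin benzoate libraries and 0, 0 and 0 in tetrazolidamide. There were 0.729, 1.15 and 0.808 FPKM in cyantraniliprole, 1.15, 0.984 and 0.702 in spinetoram and 1.45, 1.25 and 0.796 in control. With no count in any of the 3 tetrazolidamide libraries and 88 to 147 units in the control libraries, the second gene was at least 30.7-fold lower, against a floor of 3 read pairs over the group that covers counting error only (adjusted p = 7.8e-05). Added together, the 2 genes gave 8.06, 7.33 and 11.4 FPKM in tetrazolidamide, 1.22 to 2.55 FPKM in the other treatments' libraries, and 3.68, 2.73 and 2 FPKM in control, and the summed counts rose with tetrazolidamide in a fit added after seeing the data (log2 fold change 1.95 ± 0.28 SE, adjusted p = 0.00086).

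The 2 genes described as ADAM 12, a membrane protease, lie on the same sequence as the 2 lysyl oxidase genes and split the same way. LOC118270287 had 0.299, 0.301 and 0.249 FPKM in the emamectin benzoate libraries and 0, 0 and 0 in tetrazolidamide. Levels were 0.201, 0.312 and 0.265 FPKM in cyantraniliprole, 0.212, 0.218 and 0.43 in spinetoram and 0.315, 0.164 and 0.63 in control. The tetrazolidamide libraries had no count, so the gene was at least 43.2-fold lower there, against 69 to 296 units in control. LOC118270259 had 0.624, 0.705 and 0.526 FPKM in the emamectin benzoate libraries and 1.6, 1.72 and 1.19 in tetrazolidamide. Cyantraniliprole libraries had 1.19, 1.33 and 1.46 FPKM, spinetoram 0.861, 0.476 and 0.838 and control 1.05, 1.01 and 1.29. Tetrazolidamide was called higher (log2 fold change 0.56 ± 0.18 SE, adjusted p = 0.045 against control; log2 fold change 0.93 ± 0.14 SE, adjusted p = 0.0011 against the other treatments) and emamectin benzoate lower (log2 fold change -0.78 ± 0.18 SE, adjusted p = 0.040). Summed counts of the pair were not called with tetrazolidamide against control (log2 fold change 0.21 ± 0.19 SE, adjusted p = 0.47). The copies lie 927.22 and 944.44 kb apart, start to start. In the stretch of 309.55 kb from lysyl oxidase gene LOC118270335 to ADAM 12 gene LOC118270287, 6 of 6 tested genes fell with tetrazolidamide. Of the 6, 4 had no count in the 3 tetrazolidamide libraries. In the stretch of 331.2 kb from LOC118270734 to LOC118270259, the copies of these 2 genes, 5 of 7 tested genes rose and 0 fell. Both stretches were set by the members at their ends, which are themselves among these counts. Of all tested genes, 10.9% rose and 11.4% fell with tetrazolidamide. The counting could have split reads between the copies, and values of either copy alone are uncertain. For LOC118270259 (adjusted p up to 0.15), the call with emamectin benzoate did not pass 0.05 with any 1 emamectin benzoate library, tetrazolidamide 1 or 2, any 1 cyantraniliprole library or any 1 control library left out. With any 1 emamectin benzoate library, any 1 tetrazolidamide library, any 1 cyantraniliprole library or any 1 control library left out, the call with tetrazolidamide did not pass 0.05 for LOC118270259 (adjusted p up to 0.12).

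**Figure D4:**
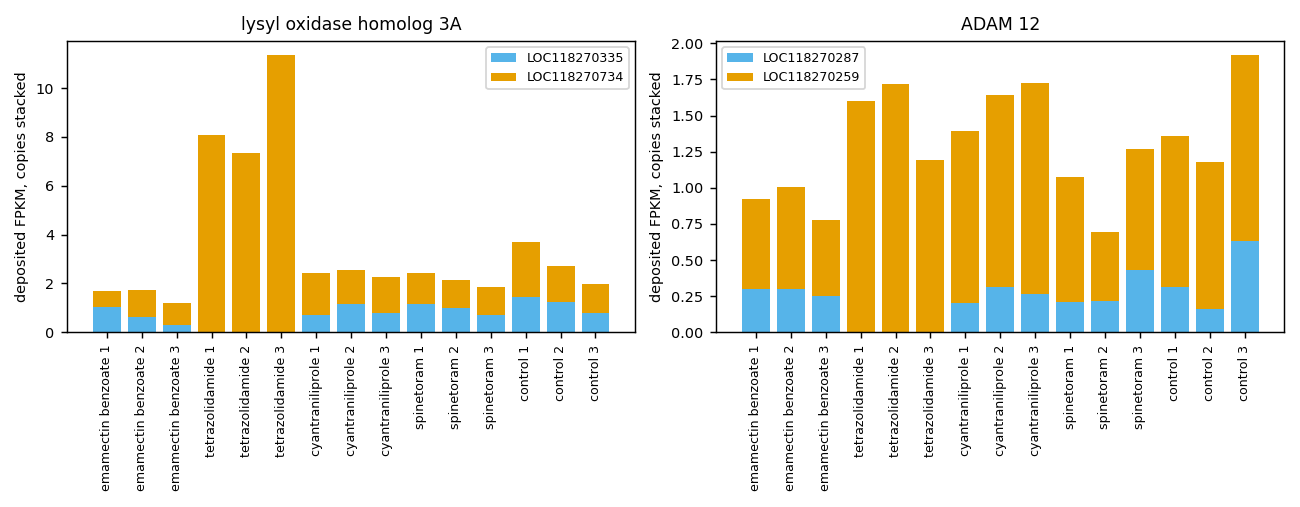
Deposited FPKM of the 2 lysyl oxidase homolog 3A genes (left) and the 2 ADAM 12 genes (right), stacked per library, with treated libraries left of control. The blue copy has no height in the 3 tetrazolidamide libraries, where the lysyl oxidase stack reaches 7.33 to 11.4 FPKM and the ADAM 12 stack stays within the range of the other libraries.

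A second pair of stretches held copies of 3 further members: the alpha-1(I)-like collagen above, an adt-2-like and an ADAMTS 16-like gene, with copies 1655.8, 1673.5 and 1684.6 kb apart. In the first stretch, of 321.01 kb, 11 of 17 tested genes rose and 1 fell with tetrazolidamide, and in the second, of 358.02 kb, 2 of 16 rose and 1 fell. Members at the ends of these stretches are among the counts. Of all tested genes, 10.9% rose and 11.4% fell with tetrazolidamide. Summed over both copies, the collagen had 51.1, 33.2 and 45.0 FPKM in tetrazolidamide, 0.372 to 11.3 FPKM in the other treatments' libraries, and 3.89, 0.736 and 1.52 FPKM in control.

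Another 2 collagen partners were called in a comparison of tetrazolidamide with control or with the other treatments. Lysyl hydroxylase 3, which modifies collagen lysines in the secretory pathway, had 32, 31.4 and 28 FPKM in emamectin benzoate, 20.9, 24.1 and 13 in tetrazolidamide, 47.9, 94.4 and 81.3 in cyantraniliprole, 27.8, 49.9 and 41.2 in spinetoram and 29.9, 23.5 and 71.3 in control (LOC118276714). Tetrazolidamide lay below the other treatments (log2 fold change -1.14 ± 0.31 SE, adjusted p = 0.025) and was not called against control (adjusted p = 0.078). The collagen and calcium-binding EGF domain protein, known in vertebrates for a role in lymphatic vessel growth, had 2.67, 1.64 and 2.5 FPKM in emamectin benzoate, 18.4, 17.2 and 16.2 in tetrazolidamide, 4.14, 8.14 and 4.2 in cyantraniliprole, 4.22, 4.21 and 7.47 in spinetoram and 5.34, 3.62 and 3.21 in control (LOC118274274). The 3 tetrazolidamide libraries were above the other 12 (log2 fold change 2.21 ± 0.33 SE, adjusted p = 0.0011 against control; log2 fold change 2.19 ± 0.24 SE, adjusted p = 0.00015 against the other treatments). For LOC118276714 (adjusted p up to 0.12), the call against the other treatments did not pass 0.05 with tetrazolidamide 1 or 3 left out.

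Of 3 matrix metalloproteinases, secreted or membrane-bound enzymes that cut basement membranes, the one described as MMP-14 rose with 3 of 4 treatments. LOC118262242 had 8.86, 6.37 and 7.71 FPKM in the emamectin benzoate libraries and 40.9, 47.7 and 50.1 in tetrazolidamide. It had 10.4, 18.2 and 12 FPKM in cyantraniliprole, 14.6, 12.4 and 12.7 in spinetoram and 6.39, 4.44 and 8.89 in control. The tetrazolidamide libraries were the 3 highest of 15, with the lowest of them at 40.9 FPKM and the highest other library, of cyantraniliprole, at 18.2 FPKM (log2 fold change 2.98 ± 0.25 SE, adjusted p = 4.2e-05 against control; log2 fold change 2.16 ± 0.18 SE, adjusted p = 2.5e-05 against the other treatments). Spinetoram (log2 fold change 1.14 ± 0.24 SE, adjusted p = 0.026) and cyantraniliprole (log2 fold change 1.00 ± 0.24 SE, adjusted p = 0.048) lay above control without overlap, while emamectin benzoate overlapped control (adjusted p = 0.55). A second description of this gene names stromelysin-3. The MMP-2-like gene LOC118267038 averaged 22.1 ± 5.5 FPKM in emamectin benzoate, 17.9 ± 8.44 in tetrazolidamide, 27.2 ± 3.49 in cyantraniliprole, 16.6 ± 4.37 in spinetoram and 21.9 ± 13.7 in control and was not called, and the MMP-2-like gene LOC118269321, at 4.41 ± 1.06 FPKM in emamectin benzoate, 2.53 ± 0.732 in tetrazolidamide, 4.77 ± 0.681 in cyantraniliprole, 3.96 ± 0.733 in spinetoram and 4.43 ± 1.8 in control, was lower in tetrazolidamide than in the other treatments (log2 fold change -0.70 ± 0.20 SE, adjusted p = 0.031). With any 1 emamectin benzoate library, any 1 tetrazolidamide library, any 1 cyantraniliprole library, any 1 spinetoram library or control 1 or 2 left out, the call with cyantraniliprole did not pass 0.05 for LOC118262242 (adjusted p up to 0.17). For LOC118262242 (adjusted p up to 0.10), the call with spinetoram did not pass 0.05 with spinetoram 1 or 2 or control 2 left out. With tetrazolidamide 2 or 3 left out, the call against the other treatments did not pass 0.05 for LOC118269321 (adjusted p up to 0.14).

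Secreted ADAMTS proteases entered the rule because the word disintegrin in their full names holds integrin, and 3 of 9 fell and 1 rose with tetrazolidamide, with 2 of 9 lower in emamectin benzoate. The share called was 44.4% with tetrazolidamide, beside 22.3% of all tested genes, and 22.2% with emamectin benzoate, beside 4.09%. ADAMTS 7 LOC118273921 had 5.1, 5.35 and 4.9 FPKM in the emamectin benzoate libraries and 3.89, 4.34 and 3 in tetrazolidamide. The values were 7.12, 15.6 and 12.4 FPKM in cyantraniliprole, 8.13, 6.24 and 12 in spinetoram and 19.6, 11 and 17.3 in control. Emamectin benzoate and tetrazolidamide lay below all control libraries (log2 fold change -1.57 ± 0.28 SE, adjusted p = 0.016 for emamectin benzoate; log2 fold change -1.97 ± 0.28 SE, adjusted p = 0.00085 for tetrazolidamide), and tetrazolidamide below the other treatments (log2 fold change -1.02 ± 0.24 SE, adjusted p = 0.012). ADAMTS 14-like LOC118268582 had 4.43, 5.23 and 3.59 FPKM in the tetrazolidamide libraries. The 9 libraries of the other treatments ran over 1.81 to 3.24 (median 2.19) FPKM, and control had 1.38, 3.15 and 1.68. The tetrazolidamide libraries were the 3 highest (log2 fold change 1.21 ± 0.28 SE, adjusted p = 0.0090 against control; log2 fold change 1.05 ± 0.21 SE, adjusted p = 0.0054 against the other treatments). The 2 ADAMTS 16-like copies named above had low levels. LOC118266126 had 0.191, 0.405 and 0.318 FPKM in the emamectin benzoate libraries and 0.626, 0.318 and 0.805 in tetrazolidamide. There were 1.32, 2.63 and 0.367 FPKM in cyantraniliprole, 0.739, 0.21 and 1.08 in spinetoram and 7.42, 1.57 and 4.14 in control (log2 fold change -3.77 ± 0.83 SE, adjusted p = 0.032 with emamectin benzoate; log2 fold change -2.74 ± 0.79 SE, adjusted p = 0.027 with tetrazolidamide). LOC118266517 had 0.31, 0.228 and 0.0826 FPKM in the tetrazolidamide libraries. Libraries of the other treatments ran over 0.0272 to 1.87 (median 0.482) FPKM (n = 9), and control had 2.99, 1.67 and 1.97 (log2 fold change -3.33 ± 0.99 SE, adjusted p = 0.031 against control). ADAMTS 3-like was higher in tetrazolidamide, at 13.3, 16.5 and 16.4 FPKM, than in the 9 libraries of the other treatments, at 8.06 to 13.3 (median 9.5), and control had 11.6, 15.5 and 11.6 FPKM (LOC118268216; log2 fold change 0.71 ± 0.15 SE, adjusted p = 0.0057). The most abundant, ADAMTS 1 (LOC118277092), averaged 14.9 ± 1.13 FPKM in emamectin benzoate, 14.8 ± 1.87 in tetrazolidamide, 21.2 ± 5.44 in cyantraniliprole, 31.7 ± 25.7 in spinetoram and 26.3 ± 10.8 in control and was not called. For LOC118273921 (adjusted p up to 0.074), the call with emamectin benzoate did not pass 0.05 with emamectin benzoate 1 or 3 left out. With any 1 emamectin benzoate library or control 1 left out, the call with emamectin benzoate did not pass 0.05 for LOC118266126 (adjusted p up to 0.13). For LOC118266126 (adjusted p up to 0.094), the call with tetrazolidamide did not pass 0.05 with tetrazolidamide 1 or 2 or control 1 left out. With any 1 tetrazolidamide library or control 1 left out, the call with tetrazolidamide did not pass 0.05 for LOC118266517 (adjusted p up to 0.10). For LOC118273921 (adjusted p up to 0.062), the call against the other treatments did not pass 0.05 with tetrazolidamide 3 left out.

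Among the integrins, the chains PS1, PS2 and beta-PS, which form the main position-specific integrins of *Drosophila* at muscle attachments and epithelia, were all higher after tetrazolidamide. Beta-PS LOC118266679 had 21.4, 18.7 and 18.9 FPKM in the emamectin benzoate libraries and 33.9, 34.5 and 34.6 in tetrazolidamide. Levels were 22.2, 28.6 and 23.1 FPKM in cyantraniliprole, 24.2, 19.8 and 24.7 in spinetoram and 23.9, 21.2 and 22.9 in control. Alpha-PS1 LOC118268865 had 11.9, 11.7 and 11.1 FPKM in the emamectin benzoate libraries and 22.1, 19.3 and 19.1 in tetrazolidamide. Cyantraniliprole libraries had 12, 17.9 and 17.9 FPKM, spinetoram 16.1, 13.7 and 17.8 and control 14, 9.72 and 13.4. Alpha-PS2 LOC118266613 had 10.9, 11.6 and 12 FPKM in the emamectin benzoate libraries and 19.3, 18.5 and 23.1 in tetrazolidamide. It had 12.6, 17.8 and 13.8 FPKM in cyantraniliprole, 15.4, 11.3 and 13.5 in spinetoram and 12.6, 13.1 and 12.4 in control. In all 3 genes every tetrazolidamide library exceeded all 12 others. All 3 were called against control: beta-PS (log2 fold change 0.74 ± 0.13 SE, adjusted p = 0.0024), alpha-PS1 (log2 fold change 0.85 ± 0.16 SE, adjusted p = 0.0036) and alpha-PS2 (log2 fold change 0.83 ± 0.17 SE, adjusted p = 0.0058). They were also called against the mean of the other treatments, for beta-PS (log2 fold change 0.73 ± 0.10 SE, adjusted p = 0.00071), alpha-PS1 (log2 fold change 0.60 ± 0.13 SE, adjusted p = 0.0073) and alpha-PS2 (log2 fold change 0.74 ± 0.14 SE, adjusted p = 0.0032). Fitted with only tetrazolidamide and control, alpha-PS2 had an adjusted p of 0.061. With emamectin benzoate, cyantraniliprole and spinetoram none of the 3 was called against control. A second gene described as alpha-PS2, LOC118281684, averaged 1.4 ± 0.294 FPKM in emamectin benzoate, 1.28 ± 0.666 in tetrazolidamide, 1.3 ± 0.454 in cyantraniliprole, 1.29 ± 0.694 in spinetoram and 0.959 ± 0.256 in control with no call.

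Integrin beta-nu, a beta chain that *Drosophila* expresses in gut and uses in blood cells for engulfment, was higher with all 4 treatments. LOC118272167 had 3.88, 4.34 and 4.56 FPKM in the emamectin benzoate libraries and 5.27, 5.16 and 4.56 in tetrazolidamide. The values were 4.2, 5.74 and 5.39 FPKM in cyantraniliprole, 4.53, 3.78 and 4.49 in spinetoram and 2.47, 2.05 and 2.63 in control. Every treated library stood above every control library. Log2 fold changes against control were 0.91 ± 0.13 SE with emamectin benzoate (adjusted p = 0.0086), 1.20 ± 0.13 SE with tetrazolidamide (adjusted p = 0.00019), 1.04 ± 0.13 SE with cyantraniliprole (adjusted p = 0.0042) and 0.95 ± 0.13 SE with spinetoram (adjusted p = 0.0076). No leave-one-out fit ended any of these 4 calls, but a fit of only the 2 groups compared left only that of tetrazolidamide, with adjusted p of 0.12 for emamectin benzoate, 0.098 for cyantraniliprole and 0.18 for spinetoram. Midgut markers had a summed level of 341, 287 and 175 FPKM in the emamectin benzoate libraries, 353, 147 and 614 in tetrazolidamide, 410.03, 462 and 657 in cyantraniliprole, 347, 183 and 253 in spinetoram and 50.3, 27 and 232 in control. Control 1 and control 2 were the 2 lowest of 15, and control 3 lay among the treated libraries. Of 9 midgut markers, 0 rose with emamectin benzoate, 4 with tetrazolidamide, 1 with cyantraniliprole and 1 with spinetoram, and 0 fell. The share called was 44.4% with tetrazolidamide, beside 22.3% of all tested genes. It was 11.1% with cyantraniliprole, beside 2.62%, and 11.1% with spinetoram, beside 4.01%. The part of these markers in the beta-nu result was not tested.

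In 2 groups of neighbouring integrin genes the means were highest in cyantraniliprole and lowest in tetrazolidamide or control. In the first, 4 beta genes lie next to each other. Integrin beta 1 gene LOC118273708 had 12.5, 10.9 and 7.93 FPKM in the emamectin benzoate libraries and 3.73, 6.58 and 3.97 in tetrazolidamide. There were 9.37, 16.8 and 19.7 FPKM in cyantraniliprole, 8.42, 8.41 and 5.33 in spinetoram and 3.36, 5.57 and 10.3 in control (log2 fold change -1.06 ± 0.31 SE, adjusted p = 0.034 for tetrazolidamide against the other treatments). Its neighbours LOC118273707 (5.29 ± 0.855 FPKM in emamectin benzoate, 1.98 ± 0.672 in tetrazolidamide, 6.32 ± 1.93 in cyantraniliprole, 3.44 ± 0.661 in spinetoram and 3.34 ± 2.22 in control; log2 fold change -1.22 ± 0.33 SE, adjusted p = 0.022) and the pat-3-like LOC118273293 (3.95 ± 0.994 FPKM in emamectin benzoate, 1.68 ± 0.493 in tetrazolidamide, 7.27 ± 3.3 in cyantraniliprole, 2.64 ± 0.703 in spinetoram and 2.3 ± 1.73 in control; log2 fold change -1.24 ± 0.38 SE, adjusted p = 0.040) were also lower in tetrazolidamide than in the other treatments, and LOC118273006 (2.7 ± 1.24 FPKM in emamectin benzoate, 1.99 ± 0.417 in tetrazolidamide, 4.93 ± 0.174 in cyantraniliprole, 3.08 ± 0.8 in spinetoram and 2.36 ± 1.34 in control) was not called. None of the 4 was called against control. In the second, 2 alpha genes lie 13.721 kb apart. Alpha-9-like LOC118267024 had 3.05, 1.98 and 2.69 FPKM in the emamectin benzoate libraries and 1.6, 1.72 and 1.14 in tetrazolidamide. Levels were 3.29, 5.16 and 6.66 FPKM in cyantraniliprole, 2.65, 2.24 and 1.89 in spinetoram and 0.945, 1.04 and 2.48 in control. Cyantraniliprole lay above all control libraries (log2 fold change 1.73 ± 0.33 SE, adjusted p = 0.022), and tetrazolidamide below the other treatments (log2 fold change -0.96 ± 0.28 SE, adjusted p = 0.029). Alpha-PS4-like LOC118266846 had 5.04, 5.57 and 3.43 FPKM in the tetrazolidamide libraries. The 9 libraries of the other treatments ran over 7.26 to 24.4 (median 10.1) FPKM, and control had 3.06, 6.27 and 11.8 (log2 fold change -1.29 ± 0.33 SE, adjusted p = 0.019 for tetrazolidamide against the other treatments). With cyantraniliprole 3 or control 1 or 2 left out, the call with cyantraniliprole did not pass 0.05 for LOC118267024 (adjusted p up to 0.093). For LOC118273708 (adjusted p up to 0.14), the call against the other treatments did not pass 0.05 with emamectin benzoate 1 or 2, tetrazolidamide 1 or 3, cyantraniliprole 3 or spinetoram 1 or 2 left out. With tetrazolidamide 1 or 3 left out, the calls against the other treatments did not pass 0.05 for LOC118273707 (adjusted p up to 0.11) and LOC118266846 (adjusted p up to 0.089). For LOC118273293 (adjusted p up to 0.14), the call against the other treatments did not pass 0.05 with emamectin benzoate 1 or 2, any 1 tetrazolidamide library, cyantraniliprole 2 or 3 or spinetoram 1 or 2 left out. With any 1 tetrazolidamide library left out, the call against the other treatments did not pass 0.05 for LOC118267024 (adjusted p up to 0.12).

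Integrin beta-8-like, LOC118266805, had 7.51, 11 and 11.6 FPKM in emamectin benzoate, 27.8, 17.4 and 8.04 in tetrazolidamide, 15.1, 16.9 and 12.7 in cyantraniliprole, 9.59, 10.4 and 10.7 in spinetoram and 3.94, 8.13 and 11.4 in control. Tetrazolidamide spread widely and overlapped control (log2 fold change 1.3 ± 0.39 SE, adjusted p = 0.031). Alpha-PS3-like LOC118265565 averaged 0.683 ± 0.118 FPKM in emamectin benzoate, 0.279 ± 0.0576 in tetrazolidamide, 1 ± 0.0196 in cyantraniliprole, 0.575 ± 0.299 in spinetoram and 0.93 ± 0.686 in control, and it was lower in tetrazolidamide (log2 fold change -1.57 ± 0.48 SE, adjusted p = 0.036 against control; log2 fold change -1.31 ± 0.42 SE, adjusted p = 0.046 against the other treatments). The other alpha-PS3-like gene, LOC118265563, averaged 0.526 ± 0.0865 FPKM in emamectin benzoate, 0.354 ± 0.102 in tetrazolidamide, 0.806 ± 0.102 in cyantraniliprole, 0.377 ± 0.17 in spinetoram and 0.587 ± 0.278 in control with no call. Summed counts of the 2 alpha-PS3-like genes, in a fit added after seeing the data, were not called for tetrazolidamide. The adjusted p of the sum was 0.084 against control and 0.093 against the other treatments. For LOC118266805 (adjusted p up to 0.16), the call with tetrazolidamide did not pass 0.05 with tetrazolidamide 1 or 2 or control 1 or 2 left out. With any 1 tetrazolidamide library or control 3 left out, the call with tetrazolidamide did not pass 0.05 for LOC118265565 (adjusted p up to 0.14). For LOC118265565 (adjusted p up to 0.15), the call against the other treatments did not pass 0.05 with any 1 emamectin benzoate library, any 1 tetrazolidamide library, any 1 cyantraniliprole library, spinetoram 2 or 3 or control 2 left out.

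**Figure D5:**
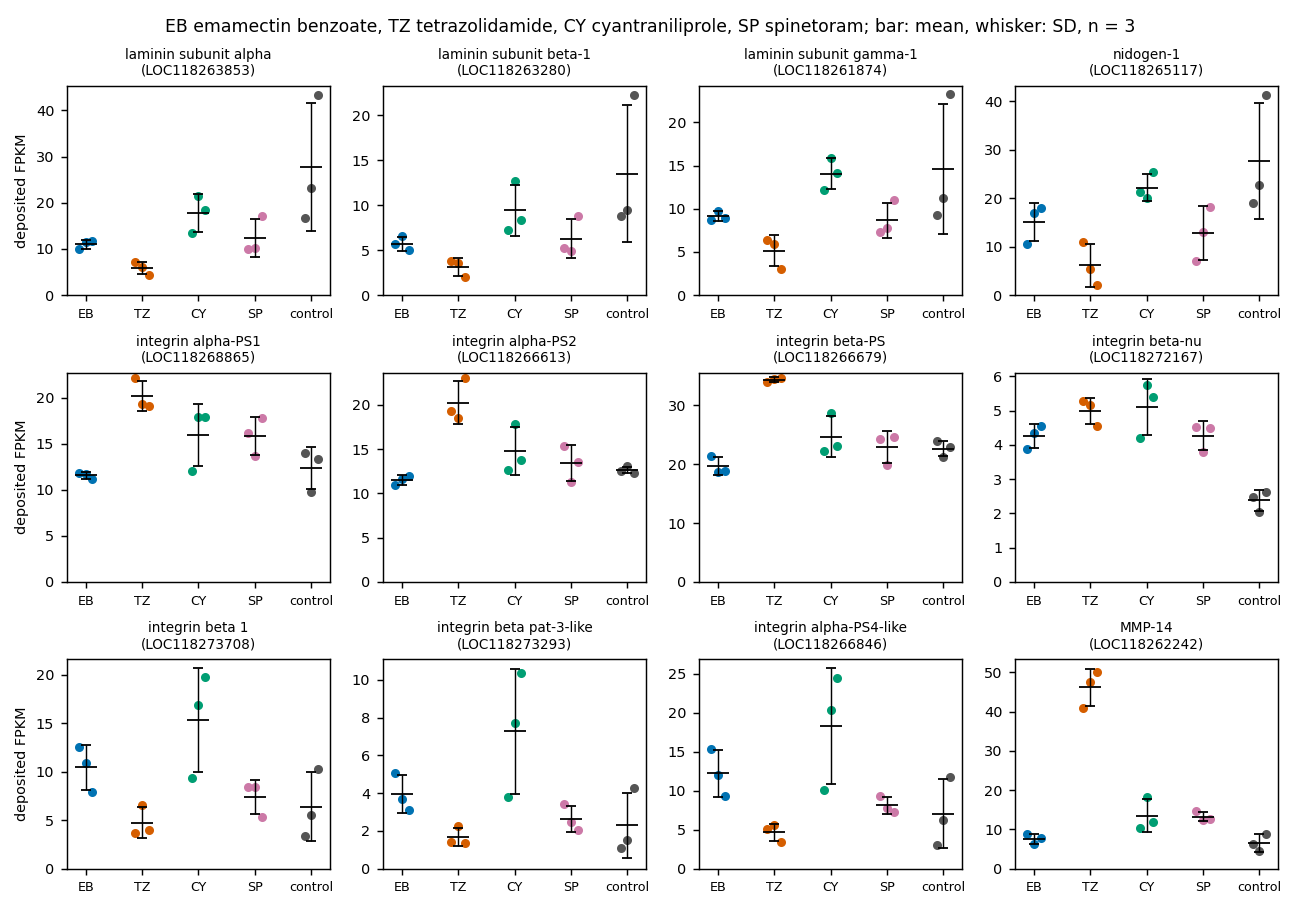
Deposited FPKM per library of 12 members, with 3 points per group, the mean as a bar and the SD as whiskers (n = 3), and treatments left of control. The tetrazolidamide points are lowest for the laminin subunits and highest for alpha-PS1, alpha-PS2, beta-PS and MMP-14, and the 3 control points are lowest for beta-nu.

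Members that the rule took in by name were 3 calcium and integrin-binding proteins, 6 ADAM proteases and 2 collagen type IV alpha-3-binding proteins, the last known in mammals as ceramide transfer proteins. Calcium and integrin-binding proteins were not called in any comparison of a treatment with control (0 of 3), and 1 of them, LOC118265892, was called in the test of any difference (2.87 ± 1.47 FPKM in emamectin benzoate, 1.54 ± 0.213 in tetrazolidamide, 3.26 ± 0.824 in cyantraniliprole, 1.35 ± 0.24 in spinetoram and 1.14 ± 0.522 in control; adjusted p = 0.047). The other 2, LOC118273584 (0.822 ± 0.56 FPKM in emamectin benzoate, 1.05 ± 0.208 in tetrazolidamide, 1.15 ± 0.696 in cyantraniliprole, 0.644 ± 0.399 in spinetoram and 0.976 ± 0.203 in control) and LOC118275322 (1.38 ± 0.0502 FPKM in emamectin benzoate, 0.699 ± 0.376 in tetrazolidamide, 0.47 ± 0.231 in cyantraniliprole, 1.19 ± 0.768 in spinetoram and 0.802 ± 0.558 in control), were called in no comparison. The more abundant ceramide transfer gene LOC118266011 had 17.1, 14.7 and 13 FPKM in the tetrazolidamide libraries. Libraries of the other treatments ran over 8.36 to 14.4 (median 10.9) FPKM (n = 9), and control had 9, 7.4 and 11. Tetrazolidamide lay above all control libraries (log2 fold change 0.85 ± 0.17 SE, adjusted p = 0.0038 against control; log2 fold change 0.50 ± 0.13 SE, adjusted p = 0.019 against the other treatments). The other ceramide transfer gene, LOC118265706, averaged 1.55 ± 0.268 FPKM in emamectin benzoate, 0.792 ± 0.105 in tetrazolidamide, 1.04 ± 0.614 in cyantraniliprole, 1.52 ± 0.502 in spinetoram and 2.14 ± 1.04 in control and was called in no comparison. Besides the ADAM 12 genes, the tested ADAM proteases were 2 ADAM 10 genes and 1 ADAM 11 gene, with no call in any comparison. LOC118268696 (ADAM 10) averaged 2.59 ± 0.316 FPKM in emamectin benzoate, 2.41 ± 0.445 in tetrazolidamide, 2.91 ± 0.622 in cyantraniliprole, 2.24 ± 0.146 in spinetoram and 2.97 ± 0.834 in control. LOC118268688 (ADAM 10) averaged 2.14 ± 0.348 FPKM in emamectin benzoate, 1.93 ± 0.282 in tetrazolidamide, 2.21 ± 0.483 in cyantraniliprole, 1.71 ± 0.199 in spinetoram and 2.05 ± 0.463 in control, and LOC118266652 (ADAM 11) averaged 0.425 ± 0.0316 FPKM in emamectin benzoate, 0.668 ± 0.133 in tetrazolidamide, 0.417 ± 0.0707 in cyantraniliprole, 0.531 ± 0.0971 in spinetoram and 0.505 ± 0.219 in control. The ADAM 10-like gene LOC118277282 was not tested and had at most 0.0776 FPKM in a library. Without the 11 name matches, the tetrazolidamide count was 10 higher and 18 lower of 89 tested, and the emamectin benzoate count 3 higher and 9 lower. With tetrazolidamide 1 or 3 left out, the call against the other treatments did not pass 0.05 for LOC118266011 (adjusted p up to 0.10).

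Partners of integrins inside the cell changed both ways with tetrazolidamide, with 3 of 15 higher and 3 lower (40% called, beside 22.3% of all tested genes), and 0 of 15 were called with emamectin benzoate, cyantraniliprole or spinetoram. Beta-parvin, which works with integrin-linked kinase at adhesion sites, averaged 44.1 ± 4.53 FPKM in emamectin benzoate, 65.8 ± 1.22 in tetrazolidamide, 49.5 ± 7.67 in cyantraniliprole, 43.8 ± 2.54 in spinetoram and 43.6 ± 4.95 in control (LOC118262643; log2 fold change 0.73 ± 0.13 SE, adjusted p = 0.0025). A tensin-1 gene, another actin linker, averaged 28.4 ± 2.68 FPKM in emamectin benzoate, 44.5 ± 1.95 in tetrazolidamide, 32.3 ± 5.19 in cyantraniliprole, 32.8 ± 2.99 in spinetoram and 32 ± 6.4 in control (LOC118278387; log2 fold change 0.63 ± 0.15 SE, adjusted p = 0.011). The third gene that rose, a LIM and senescent cell antigen-like protein, averaged 25.8 ± 4.91 FPKM in emamectin benzoate, 38.9 ± 2.34 in tetrazolidamide, 31.4 ± 4.85 in cyantraniliprole, 26.8 ± 2.75 in spinetoram and 28.9 ± 3.71 in control (LOC118270026; log2 fold change 0.56 ± 0.17 SE, adjusted p = 0.037). Of the 3 that fell, a LIM domains protein gene averaged 566 ± 78.2 FPKM in emamectin benzoate, 298 ± 35 in tetrazolidamide, 521 ± 73.9 in cyantraniliprole, 562 ± 145 in spinetoram and 629.52 ± 207 in control (LOC118261899; log2 fold change -0.96 ± 0.26 SE, adjusted p = 0.021). A talin-1-like gene, whose mammalian counterpart ties integrins to actin, averaged 2.9 ± 0.659 FPKM in emamectin benzoate, 0.733 ± 0.256 in tetrazolidamide, 3.21 ± 0.965 in cyantraniliprole, 2.03 ± 0.234 in spinetoram and 1.95 ± 0.836 in control (LOC118280712; log2 fold change -1.27 ± 0.31 SE, adjusted p = 0.012). Focal adhesion kinase 1, a kinase active at adhesion sites, averaged 2 ± 0.2 FPKM in emamectin benzoate, 1.8 ± 0.172 in tetrazolidamide, 2.65 ± 0.528 in cyantraniliprole, 2.56 ± 0.616 in spinetoram and 2.84 ± 0.232 in control (LOC118277302; log2 fold change -0.51 ± 0.17 SE, adjusted p = 0.0499). Of 6 tested genes for matrix assembly and processing, 2 fell with tetrazolidamide, both peroxidasins, which cross-link collagen IV, and 0 were called with the other treatments. The share called with tetrazolidamide was 33.3%, beside 22.3% of all tested genes. LOC118269930 averaged 0.665 ± 0.278 FPKM in emamectin benzoate, 0.185 ± 0.054 in tetrazolidamide, 0.509 ± 0.112 in cyantraniliprole, 0.687 ± 0.145 in spinetoram and 0.808 ± 0.426 in control (log2 fold change -1.96 ± 0.41 SE, adjusted p = 0.0058), and LOC118266710 averaged 2.39 ± 0.388 FPKM in emamectin benzoate, 1.54 ± 0.429 in tetrazolidamide, 2.69 ± 0.453 in cyantraniliprole, 1.95 ± 0.402 in spinetoram and 3.13 ± 0.691 in control (log2 fold change -0.89 ± 0.23 SE, adjusted p = 0.014). Of 27 other tested matrix proteins and receptors, 3 rose and 1 fell with tetrazolidamide, 1 rose with emamectin benzoate, 1 fell with cyantraniliprole and 0 were called with spinetoram. The share called was 14.8% with tetrazolidamide, beside 22.3% of all tested genes. It was 3.7% with emamectin benzoate, beside 4.09%, and 3.7% with cyantraniliprole, beside 2.62%. A discoidin domain receptor, a collagen receptor kinase, averaged 1.4 ± 0.29 FPKM in emamectin benzoate, 0.644 ± 0.153 in tetrazolidamide, 1.02 ± 0.154 in cyantraniliprole, 1.01 ± 0.144 in spinetoram and 1.88 ± 0.413 in control (LOC118264898) and fell with tetrazolidamide (log2 fold change -1.42 ± 0.21 SE, adjusted p = 0.00090) and cyantraniliprole (log2 fold change -0.94 ± 0.21 SE, adjusted p = 0.036). One of 2 syndecans, membrane proteoglycans, rose with tetrazolidamide and averaged 2.66 ± 0.139 FPKM in emamectin benzoate, 8.53 ± 2.77 in tetrazolidamide, 5.72 ± 0.742 in cyantraniliprole, 5.51 ± 1.82 in spinetoram and 4.23 ± 1.41 in control (LOC118277765; log2 fold change 1.15 ± 0.27 SE, adjusted p = 0.0094). A fibrillin-2-like gene rose with emamectin benzoate and averaged 0.877 ± 0.137 FPKM in emamectin benzoate, 0.171 ± 0.0208 in tetrazolidamide, 0.441 ± 0.131 in cyantraniliprole, 0.483 ± 0.172 in spinetoram and 0.215 ± 0.139 in control (LOC118268653; log2 fold change 2.11 ± 0.44 SE, adjusted p = 0.027).

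Epidermal markers moved with tetrazolidamide too: 68 of 144 tested cuticle protein genes rose and 4 fell, with a summed level of 58384, 54194 and 55301 FPKM in the emamectin benzoate libraries, 77443, 65405 and 67781 in tetrazolidamide, 37547, 45074 and 39458 in cyantraniliprole, 47855, 35707 and 61395 in spinetoram and 36773, 43848 and 29990.0 in control. Tetrazolidamide libraries were the 3 highest of 15. Muscle markers summed to 84712 to 110690.0 FPKM in tetrazolidamide and 62551 to 102430.0 FPKM in control, and fat body markers to 1273 to 4095 FPKM in tetrazolidamide and 2076 to 5494 FPKM in control, overlapping in both cases. Over the 15 libraries a single gene held 55.6% of the mean muscle sum and another 86% of the mean fat body sum. With tetrazolidamide 5 of 34 tested muscle markers fell, all titin genes, and 1 rose, another titin gene. Of 19 tested fat body markers 4 rose, among them 2 transferrins, and 1 fell, an apolipophorin. The share called with tetrazolidamide was 17.6% for muscle, 26.3% for fat body and 50% for epidermal markers, beside 22.3% of all tested genes. The part of these tissues in the integrin, metalloproteinase and collagen results was not tested.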

How the data were processed

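The labels' protocols describe TRIzol extraction, poly(A) selection and strand marking by dUTP. The submitters' processing notes name StringTie 1.3.4d, HISAT2 2.0.4, cutadapt 1.9, DESeq2 and edgeR with no roles, and the genome build is not given in the sources used here. Per the file headers, the authors deposited an estimated count and an FPKM value per gene and library. Low counts peak at 4, 8, 12, 15, 19 and 23 units, about 3.83 units per read pair. The deposited FPKM of 0.0001 stands for no count and was read as 0. No library repeated another.

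The deposited counts were tested with edgeR 4.0.16 (quasi-likelihood, TMM factors, filterByExpr with a minimum count of 10) in R 4.3.3. A model with 1 coefficient per group was fitted to all 15 libraries, and Benjamini-Hochberg adjustment ran over 15505 genes, two-sided, with a threshold of 0.05. SE is the absolute log2 fold change divided by the square root of the F value. The test was tried on simulated counts. Levels are means of deposited FPKM, with no pseudocount. For a group with no count, a total of 3 read pairs (11.5 units) served as the floor.

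Members and gene lists were chosen with earlier results of these data known. Named were, whatever their p, collagen, laminin, nidogen, papilin, SPARC, lysyl oxidase, metalloproteinase and integrin genes with a mean of 1 FPKM or more, and up to 15 called members per direction and comparison. The reference name table held 84 of the 105 identifiers. The alternatives tried were DESeq2 1.42.0, edgeR with DESeq2 size factors, no filter, an FPKM of 5 in 3 libraries, a replicate block, limma-trend (limma 3.58.1) on log2(FPKM + 1) and log2(FPKM + 0.1), a fit of only the 2 groups compared and leaving out each library. Summing copies of 1 description was added after seeing the data. Peroxidasins, which stand on both the blood cell and the matrix assembly list, were counted only with matrix assembly. No sequence was used here.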

Additional observations from a re-analysis of the deposited data

How the results depend on the processing

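Of 89 calls of single members, 44 passed 0.05 in all 15 fits that leave out 1 library. None changed sign under an alternative run that fitted the gene singly. When copies were summed, only 58 of the 89 calls, those of genes outside the summed pairs, could be compared. Summed pairs can differ in sign from a single copy. LOC118270335 was called lower with tetrazolidamide, while its pair rose (log2 fold change 1.95). Counts of called members ran from 3 to 14 for emamectin benzoate, from 26 to 34 for tetrazolidamide, from 1 to 15 for cyantraniliprole and from 1 to 5 for spinetoram over these fits. They ran from 25 to 43 for any difference among the 5 groups and from 16 to 39 for tetrazolidamide against the other treatments. The lowest counts came without emamectin benzoate 1, without tetrazolidamide 1, without control 2 for both cyantraniliprole and spinetoram, and without tetrazolidamide 3 for the last 2 comparisons. A fit of only the 2 groups compared called 0 members for emamectin benzoate, 20 for tetrazolidamide, 0 for cyantraniliprole and 0 for spinetoram, with 27, 39, 21 and 11 at an unadjusted p under 0.05, and fewer samples estimate the spread there. DESeq2 called 15 members for cyantraniliprole and 10 for spinetoram, and the stricter filter left 27 for any difference with fewer members tested. Deviations from the group means were correlated between treated and control libraries of the same replicate number, at -0.154 to 0.373. Whether the replicate numbers pair the samples was not settled by these values. With a replicate block 7 members were called for emamectin benzoate and 29 for tetrazolidamide. The block ended 15 of the 89 calls, limma-trend with a pseudocount of 1 ended 10 and with 0.1 ended 8, no filter ended 4 and DESeq2 size factors 1. Summing copies gave 10, 25, 4 and 2 members for the 4 treatments in the order above.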
